A study of Mus musculus with 11 samples.

Results

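The genes described here are the 9 genes that encode the subunits of the phagocyte NADPH oxidase, the epithelial NADPH oxidases, the inducible nitric oxide synthase and arginase 1. They were taken by symbol from a table of 45777 genes, and the members are *Cybb*, *Cyba*, *Ncf1*, *Ncf4*, *Nox1*, *Duox2*, *Duoxa2*, *Nos2* and *Arg1*. RNA was sequenced from the skin and the small intestine of BALB/c mice, female or male, which were 8 to 10 weeks old and were shaved before treatment. Mice received a cream with 5% imiquimod (IMQ), a ligand of Toll-like receptor 7, at 62.5 mg per day on the back and right ear for 5 to 8 days, and control mice received Vaseline. Skin gave 3 control libraries (replicates 1 to 3) and 3 IMQ libraries (replicates 4 to 6). The small intestine gave 3 control libraries (replicates 7 to 9) and 2 IMQ libraries (replicates 10 and 11). The mice carried no engineered allele according to the labels, and the segment of small intestine is not given in the sources used here. The labels do not say which libraries came from separate mice, so a p-value measures the spread between these libraries, which may in part be technical. The comparisons ask how the genes for production of reactive oxygen and nitric oxide differed with IMQ in the treated skin and in the distant intestine.

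NADPH oxidases are membrane enzymes that pass electrons from NADPH to oxygen. In phagocytes, the catalytic subunit gp91phox (*Cybb*) sits in the membrane with p22phox (*Cyba*), and on activation cytosolic subunits, among them p47phox (*Ncf1*) and p40phox (*Ncf4*), join them together with the GTPase Rac2. Epithelia use relatives of *Cybb*, of which *Nox1* and *Duox2* are known in the gut, and DUOX2 needs its maturation factor DUOXA2 to leave the endoplasmic reticulum. *Nos2* encodes the inducible synthase that makes nitric oxide from arginine, and *Arg1* encodes the cytosolic arginase, which uses the same amino acid.

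Positions are given on the mouse genome build GRCm38. *Cybb* is at chrX:9435252-9487766, *Cyba* at chr8:122424771-122432940, *Ncf1* at chr5:134220053-134229628 and *Ncf4* at chr15:78244164-78262582. *Nox1* is at chrX:134086421-134137711, *Nos2* at chr11:78920787-78960226 and *Arg1* at chr10:24915207-24927470. *Duox2* (chr2:122279246-122298740) and *Duoxa2* (chr2:122298900-122302885) are neighbors that point away from each other, and the start sites used here are 673 bases apart. An annotated gene overlaps *Cybb* (Gm33784), *Ncf1* (LOC115490142), *Nox1* (*Cstf2*) and *Arg1* (Gm40616), and the handling of strand in the counts is not given in the sources used here, so reads in the shared stretches cannot be told apart.

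Promoter windows of 300 bases, from 250 bases before to 50 bases after the start site, were taken from RefSeq (GRCm38.p6) for 6 of the 9 genes. The windows of *Cybb*, *Cyba* and *Ncf1* are shown because these genes rose with IMQ in skin, and those of *Duox2* and *Duoxa2* because these genes are neighbors. Letters are 5′ to 3′ on the strand of the gene, and capitals mark matches to the 8 motifs searched on both strands. The windows are chrX:9469275-9469574 (minus strand), chr8:122432891-122433190 (minus strand), chr5:134229576-134229875 (minus strand), chr2:122298178-122298477 (minus strand) and chr2:122298650-122298949 (plus strand). The start sites used for *Cybb* and *Duox2* lie inside the annotated span of the gene. The *Duox2* window lies wholly inside *Duox2* and holds none of the region between *Duox2* and *Duoxa2*, which the *Duoxa2* window covers.
Cybb: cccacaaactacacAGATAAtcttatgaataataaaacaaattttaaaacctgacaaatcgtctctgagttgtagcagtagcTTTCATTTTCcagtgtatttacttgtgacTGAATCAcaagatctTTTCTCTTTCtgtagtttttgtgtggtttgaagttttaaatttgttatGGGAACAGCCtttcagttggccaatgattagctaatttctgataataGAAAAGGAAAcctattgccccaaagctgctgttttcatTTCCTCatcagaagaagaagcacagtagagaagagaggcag
Cyba: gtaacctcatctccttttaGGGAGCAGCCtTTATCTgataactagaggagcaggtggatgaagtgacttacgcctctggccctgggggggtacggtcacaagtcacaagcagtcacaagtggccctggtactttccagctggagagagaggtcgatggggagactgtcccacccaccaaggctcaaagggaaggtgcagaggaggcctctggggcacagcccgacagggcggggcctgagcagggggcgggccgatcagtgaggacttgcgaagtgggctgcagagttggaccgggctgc
Ncf1: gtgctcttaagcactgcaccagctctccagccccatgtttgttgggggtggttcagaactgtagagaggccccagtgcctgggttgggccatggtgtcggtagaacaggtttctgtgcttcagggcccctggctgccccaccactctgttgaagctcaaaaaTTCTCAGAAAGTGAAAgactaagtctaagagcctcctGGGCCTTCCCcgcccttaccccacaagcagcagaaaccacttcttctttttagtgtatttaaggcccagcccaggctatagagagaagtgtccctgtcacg
Duox2: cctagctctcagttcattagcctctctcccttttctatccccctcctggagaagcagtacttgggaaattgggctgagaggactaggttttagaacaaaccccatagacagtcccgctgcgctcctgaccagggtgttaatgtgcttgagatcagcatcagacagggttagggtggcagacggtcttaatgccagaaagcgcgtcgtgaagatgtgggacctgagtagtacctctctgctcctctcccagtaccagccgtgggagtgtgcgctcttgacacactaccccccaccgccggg
Duoxa2: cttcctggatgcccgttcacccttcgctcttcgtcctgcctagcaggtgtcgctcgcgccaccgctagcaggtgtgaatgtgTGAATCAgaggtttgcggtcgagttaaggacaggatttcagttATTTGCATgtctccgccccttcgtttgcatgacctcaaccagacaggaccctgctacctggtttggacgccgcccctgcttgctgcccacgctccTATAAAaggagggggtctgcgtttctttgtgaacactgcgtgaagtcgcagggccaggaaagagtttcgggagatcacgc

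The motif of interferon regulatory factor type, GAAA followed after any 2 bases by GAAA, was found 3 times in the window of *Cybb*, starting at −168, −124 and −29 from the start site, and once in that of *Ncf1*, at −82, and not in that of *Cyba*. It occurred in 3.44% of 32851 promoter windows of the same length. The hexamer GAGGAA, the PU.1 type, was found in *Cybb* from +9 and in the window of *Nox1* (not shown) and occurred in 28.3% of windows. The NF-kappaB type, GGGA followed after any 4 bases by CC, was found in *Cybb*, *Cyba*, *Ncf1* and *Nox1* and in 20.7% of windows. The AP-1 type TGANTCA (7.81% of windows) was found in *Cybb* and *Duoxa2*, the GATA type AGATAA (11.2%) in *Cybb* and *Cyba*, and the STAT type TTCNNNGAA (8.3%) in *Ncf1*, where its last 3 bases are the first 3 of the interferon regulatory factor type. *Duoxa2* also had TATAAA at −30 (13.6% of windows) and the octamer ATTTGCAT at −125 (1.74%). None of the 8 motifs was found in the window of *Duox2*. These matches describe letters in the windows and were not tested for binding.

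Libraries had 44995414 to 58526384 counts. Marker genes matched the labelled tissues, with a summed level of 5 keratinocyte markers of 4709 to 13059 FPKM (fragments scaled to gene length and library size) in skin and 0.469 to 1.39 in the small intestine, and of 8 intestinal epithelial markers of 8189 to 21423 in the small intestine. Skin control 2 stood apart from the other skin controls. Its intestinal epithelial markers summed to 184 FPKM and reached, by the median over the 8 genes, 0.924% of what control intestine held, against 0 to 0.0269% in the other 5 skin libraries. Its hair follicle markers summed to 2.06 FPKM against 550 and 902 in the other controls and 1.88 to 2.28 in IMQ skin. Small intestine control 7 resembled the IMQ libraries for *Nos2*, as described with that gene. Where leaving out either library changed a call or a sign, the value without it is given beside the result.

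In skin, the 4 subunits of the phagocyte oxidase rose with IMQ. *Cybb* rose 2.81-fold, *Cyba* 1.87-fold, *Ncf1* 2.43-fold and *Ncf4* 3.20-fold. Of the 9 genes 8 were tested in skin, 4 were higher at an adjusted p under 0.05 and 0 were lower (1 lower at an unadjusted p under 0.05, 0 lower by DESeq2 or limma), where 6.74% of the 20512 genes tested were called in either direction. Of these 20512 genes, DESeq2 called 3030 in either direction, and 4753 had an unadjusted p under 0.05 by edgeR. The median log2 fold change was 0.69 for the 8 genes and −0.01 for all genes tested. In bulk tissue, more or fewer cells of a type and more or less RNA per cell cannot be told apart. Here and below, normalized counts were scaled within a tissue by relative log expression. The tests within a tissue were scaled likewise, and those of the tissue difference and the interaction over all 11 libraries. Genes were tested with the quasi-likelihood method of edgeR, with p-values adjusted by Benjamini and Hochberg across every gene in the comparison.

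The catalytic subunit *Cybb* had normalized counts of 1444, 1545 and 848 in skin controls 1 to 3 and of 4390, 3234 and 3153 in IMQ skin. The groups did not overlap, and the lowest library was control 3. How often the skin groups do not overlap over all genes was not counted. The log2 fold change was 1.49 ± 0.25 (SE, n = 3 and 3, edgeR adjusted p = 0.0224). The call was lost without control 1 or any 1 of the 3 IMQ libraries (adjusted p = 0.0512 to 0.0748, log2 fold change 1.32 to 1.58).

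*Cyba*, whose product holds the catalytic subunit in the membrane, had normalized counts of 1185, 1097 and 1387 in skin controls and of 1884, 2125 and 2841 in IMQ skin. The IMQ libraries lay above the controls, with IMQ library 6 the highest. *Cyba* had a log2 fold change of 0.90 ± 0.18 (SE, edgeR adjusted p = 0.0354), the smallest of the 4 subunits. It was called in none of the 6 fits that left out 1 skin library (adjusted p = 0.0509 to 0.133) and in neither fit of limma on FPKM (adjusted p = 0.0667 and 0.0857), with log2 fold changes of 0.72 to 1.02 in those fits.

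The cytosolic subunits gave the steadiest differences in skin. *Ncf1*, the organizer of the assembled enzyme, had normalized counts of 960, 877 and 695 in controls and of 1816, 2190 and 2144 in IMQ skin, and its log2 fold change was 1.28 ± 0.16 (SE, edgeR adjusted p = 0.00800). It missed the threshold only without IMQ library 5 among the 6 fits that left out a skin library (adjusted p = 0.0502). *Ncf4* had normalized counts of 572, 655 and 483 in controls and of 1750, 1594 and 2123 in IMQ skin. Its log2 fold change was 1.68 ± 0.17 (SE, edgeR adjusted p = 0.00445), and it was called under all 7 other settings run for skin and in all 6 fits that left out 1 skin library.

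In the small intestine, *Cybb* rose 4.27-fold and *Cyba* 1.58-fold, and *Ncf1* and *Ncf4* lay higher in both IMQ libraries without passing the threshold. All 9 genes were tested, 2 were higher and 0 lower (3 lower at an unadjusted p under 0.05, 2 lower by DESeq2, 0 by limma), where 2.95% of the 19965 genes tested were called. Of these 19965 genes, DESeq2 called 1206 in either direction, and 2452 had an unadjusted p under 0.05 by edgeR. The median log2 fold change was −0.48 for the 9 genes and −0.02 for all genes tested.

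*Cybb* had normalized counts of 1754, 1719 and 2009 in intestinal controls 7 to 9 and of 8481 and 7128 in IMQ libraries 10 and 11. The controls lay close together, and both IMQ libraries lay far above them. This gave a log2 fold change of 2.09 ± 0.14 (SE, n = 2 and 3, edgeR adjusted p = 4.17e-04), and *Cybb* was called under all 7 other settings run for the small intestine and in all 5 fits that left out 1 intestinal library. *Cyba* had normalized counts of 1609, 1847 and 1568 in controls and of 2724 and 2565 in IMQ libraries. Its log2 fold change was 0.66 ± 0.12 (SE, edgeR adjusted p = 0.0389), and it was called in none of the 5 fits that left out 1 intestinal library (adjusted p = 0.0555 to 0.262), nor by limma on FPKM (adjusted p = 0.131 and 0.159).

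*Ncf1* had normalized counts of 1300, 935 and 920 in intestinal controls and of 1715 and 2444 in IMQ libraries, with a log2 fold change of 0.98 (95% interval 0.48 to 1.49, edgeR adjusted p = 0.0677). *Ncf4* had normalized counts of 651, 306 and 391 in controls and of 1116 and 1098 in IMQ libraries, with a log2 fold change of 1.30 (95% interval 0.60 to 2.01, edgeR adjusted p = 0.0827). For both genes the groups did not overlap, and control 7 was the highest control. The share of all genes without overlap between these groups was not counted. Without control 7, *Ncf1* (log2 fold change 1.17, adjusted p = 0.0194) and *Ncf4* (1.67, adjusted p = 0.00446) were called, and both were called by DESeq2 with all libraries (adjusted p = 0.00277 and 0.00182). Leaving out the highest control was bound to widen both differences, so the fit without it is not independent evidence.

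**Figure D1:**
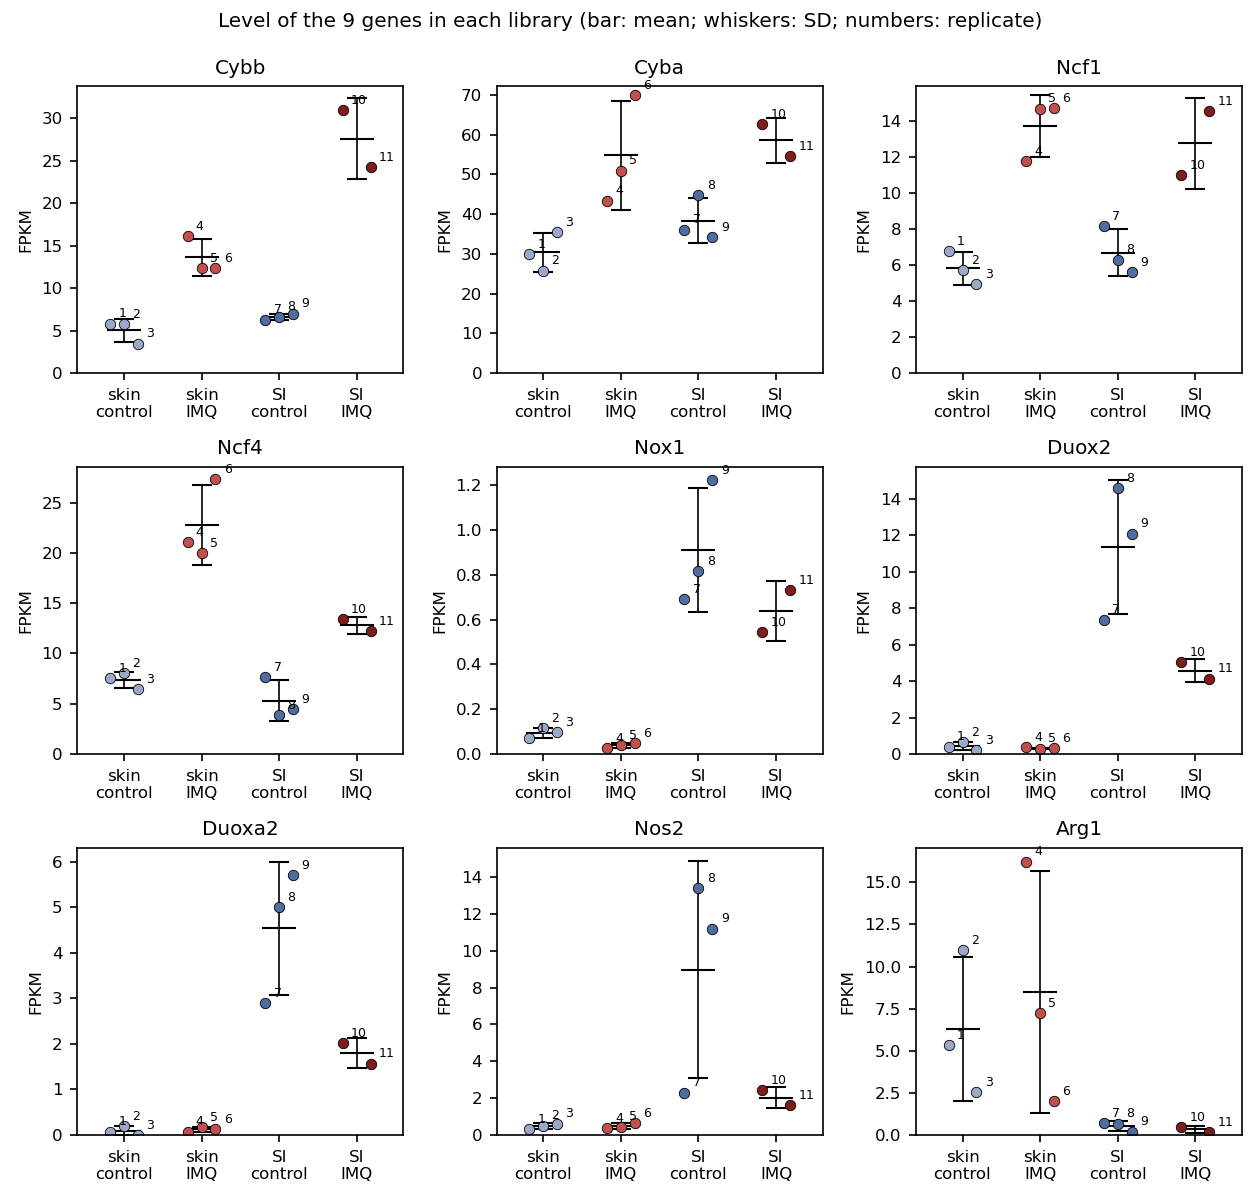
Level of each of the 9 genes in FPKM on the y axis, by tissue and treatment on the x axis (SI, small intestine). Each point is 1 library labelled with its replicate number, bars are means and whiskers SDs (n = 3, 3, 3 and 2). *Cybb*, *Cyba*, *Ncf1* and *Ncf4* are present in both tissues, while *Nox1*, *Duox2*, *Duoxa2* and *Nos2* are near 0 in skin and *Arg1* is near 0 in the small intestine.

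Measured per length, *Cyba* was the most abundant of the 4 subunits in every group. Its FPKM was 30.4 ± 4.85 (SD, n = 3) in control skin, 54.8 ± 13.7 (n = 3) in IMQ skin, 38.4 ± 5.58 (n = 3) in control intestine and 58.6 ± 5.67 (n = 2) in IMQ intestine. *Cybb* had FPKM of 5.02 ± 1.35, 13.6 ± 2.17, 6.64 ± 0.347 and 27.6 ± 4.74 in the same order. *Cybb* was thus highest in IMQ intestine, followed by IMQ skin, control intestine and control skin, and no neighbors in that order overlapped. *Ncf1* and *Ncf4* were highest in IMQ skin, at 13.7 ± 1.70 and 22.8 ± 3.99 FPKM. For *Ncf1* the libraries of IMQ intestine (12.8 ± 2.52 FPKM) overlapped with those of IMQ skin, and for *Ncf4* they were lower (13.4 and 12.2).

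The proportion between subunits within a library differed most in the small intestine. *Cybb* was 0.148 to 0.204 times *Cyba* by FPKM in control intestine and 0.494 and 0.444 times in the IMQ libraries. In skin this ratio was 0.0975 to 0.224 in controls and 0.176 to 0.371 with IMQ, and the groups overlapped. These ratios are descriptions of the libraries and were not tested.

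**Figure D2:**
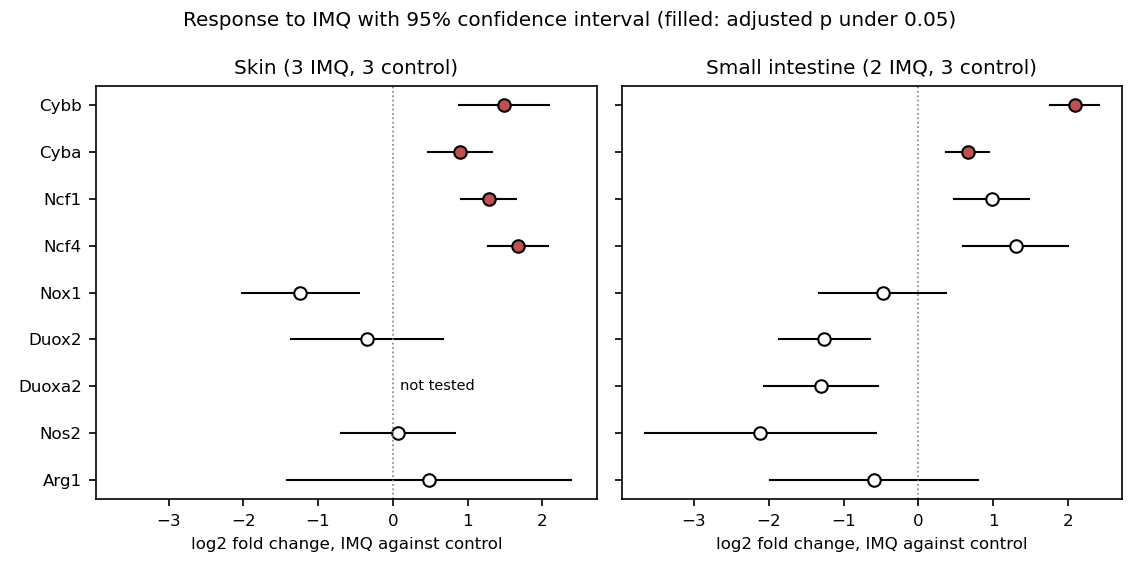
Log2 fold change of IMQ against control (x axis) with its 95% confidence interval for the 9 genes (y axis) in skin and small intestine. Filled points have an edgeR adjusted p under 0.05. The 4 subunits of the phagocyte oxidase lie to the right of 0 in both tissues, while *Nox1* and *Duox2* lie to the left of 0 in both and *Duoxa2*, *Nos2* and *Arg1* in the small intestine, all without a call.

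Some markers of phagocytes moved in the same libraries. The 10 macrophage and monocyte markers, each at 1 FPKM or more in every library, summed to 526 to 735 FPKM in control skin and 1183 to 1552 in IMQ skin, and to 270 to 367 in control intestine and 903 to 973 in IMQ intestine. Of these 10 markers 6 were higher in IMQ skin and 5 in IMQ intestine, where edgeR called 6.74% and 2.95% of all genes tested. The 10 neutrophil markers summed to 13.7 to 15.2 FPKM in control skin and 7037 to 8588 in IMQ skin, and 6 of the 7 tested were higher. Nearly all of the sum in IMQ skin was *S100a8* and *S100a9*, at mean levels of 3434.5 and 4300 FPKM. Their log2 fold changes were 10.2 and 9.46, against 3.49 (*Mmp8*) at most for the other tested markers. The skin sum thus mainly follows these genes, and which cells expressed them was not tested. Intestinal libraries gave sums of 7.88 to 8.24 FPKM in controls and 15.4 and 15.8 with IMQ, and 2 of the 6 tested were higher, *Csf3r* (log2 fold change 3.21, edgeR adjusted p = 4.86e-04) and *Mmp8* (1.83, adjusted p = 0.0425). The rest were not called, with *S100a9* at 2.24, *Ltf* at 0.16, *Retnlg* at −0.07 and *Cxcr2* at −0.25 (edgeR adjusted p = 0.164 to 0.978). *Ly6g* and *Ngp* were at 0 in both intestinal IMQ libraries, and *Ly6g* was at 0.173 FPKM or less in IMQ skin as well. The part of these cells in the rise of the oxidase genes was not tested.

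Set against *Csf1r*, the receptor for the macrophage growth factor, *Cybb* was at 0.126 to 0.135 by FPKM in control skin and at 0.217 to 0.345 in IMQ skin. The intestinal ratio was 0.232 to 0.396 in controls and 1.13 and 0.983 with IMQ. The groups did not overlap in either tissue. *Csf1r* was among the macrophage markers that were not called (log2 fold change 0.40 in skin and 0.38 in the small intestine, edgeR adjusted p = 0.333 and 0.605), and the ratio depends on that choice. The median log2 fold change of the 10 macrophage markers was 1.14 in skin and 1.65 in the small intestine, beside 1.49 and 2.09 for *Cybb*, and some markers had larger values than *Cybb*, as *Adgre1* in skin (2.88) and *C1qb* (2.83), *C1qc* (2.61) and *Cd68* (2.54) in the small intestine. *Ncf4* set against *Csf3r*, the receptor for the neutrophil growth factor and a marker that rose in both tissues, went the other way, from 2.65 to 3.43 in control skin to 0.980 to 1.54 in IMQ skin and from 4.79 to 7.48 in control intestine to 1.72 and 1.75 with IMQ.

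**Figure D3:**
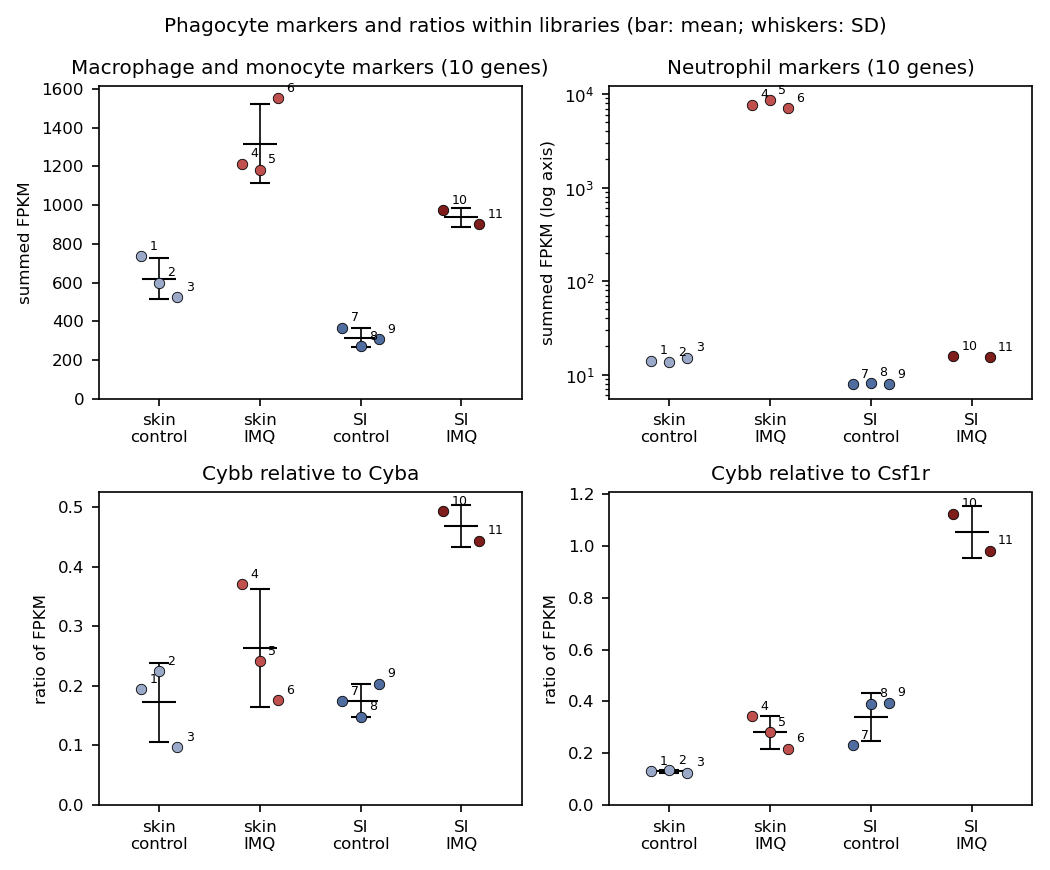
Summed FPKM of 10 macrophage and monocyte markers and of 10 neutrophil markers (log axis), and the ratio of *Cybb* to *Cyba* and to *Csf1r*, on the y axes by tissue and treatment (SI, small intestine). Points are libraries labelled with their replicate numbers, and on the linear axes bars are means and whiskers SDs. The neutrophil sum reaches 7037 to 8588 FPKM in IMQ skin, nearly all of it *S100a8* and *S100a9*, and 15.8 at most in IMQ intestine. In skin *S100a8* and *S100a9* had by far the largest log2 fold changes of the tested neutrophil markers. The macrophage sum is higher with IMQ in both tissues.

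The epithelial oxidase genes did not pass the threshold in the small intestine, but *Duox2* and *Duoxa2* lay lower in both IMQ libraries. *Duox2*, the catalytic enzyme that releases hydrogen peroxide at the gut surface, had normalized counts of 2625, 4759 and 4427 in controls 7 to 9 and of 1747 and 1550 with IMQ. The log2 fold change was −1.26 (95% interval −1.86 to −0.65, edgeR adjusted p = 0.0550). Its maturation factor *Duoxa2* had normalized counts of 272, 436 and 549 in controls and of 185 and 155 with IMQ, with a log2 fold change of −1.30 (95% interval −2.06 to −0.53, edgeR adjusted p = 0.110). For both genes the groups did not overlap, and control 7 was the control nearest to the IMQ libraries. How often groups of this size do not overlap over all genes was not counted. DESeq2 called both lower with all libraries (adjusted p = 2.46e-04 and 0.00263). The ratio of *Duox2* to *Duoxa2* by FPKM was 2.12 to 2.90 in controls and 2.48 and 2.63 with IMQ, so that the pair kept its proportion while both levels lay lower.

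*Nos2* was the member with the widest spread in control intestine. Its normalized counts were 564, 3041 and 2812 in controls 7 to 9 and 567 and 418 with IMQ. Control 7 lay at the level of the IMQ libraries, and the groups overlapped. The log2 fold change was −2.12 (95% interval −3.66 to −0.57, edgeR adjusted p = 0.204). Without control 7 it was −2.56 (adjusted p = 6.51e-04), and *Duox2* (−1.47, adjusted p = 0.00188) and *Duoxa2* (−1.52, adjusted p = 0.0191) were also called lower. Control 7 was the control nearest to the IMQ libraries for *Nos2*, *Duox2* and *Duoxa2*. Leaving it out was thus bound to widen these differences, and the fit without it is not independent evidence for them. In that fit 6 of the 9 genes were called, 3 higher (*Cybb*, *Ncf1* and *Ncf4*) and 3 lower, and *Cyba* was not called (adjusted p = 0.0626). Leaving out 1 of the other 4 intestinal libraries left *Cybb* as the only one of the 9 genes called.

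Some markers of the place along the small intestine and of its epithelial cells also differed between these libraries. The 3 proximal markers summed to 4021 FPKM in control 7, against 1432 and 2329 in controls 8 and 9 and 5411 and 6776 in the IMQ libraries. Nearly all of this sum was *Fabp1*, a fatty acid binding protein of absorptive cells (3809 FPKM in control 7, 1282 and 2196 in controls 8 and 9, 5207 and 6546 with IMQ), while *Gata4* stayed at 31.9 to 37.6 FPKM in the 5 libraries (log2 fold change −0.01, edgeR adjusted p = 0.994). The 8 intestinal epithelial markers, which share *Fabp1* with that list, summed to 8189 to 13738 FPKM in controls and 18513 and 21423 with IMQ. Their median log2 fold change was −0.13, since *Fabp1* (1.31), *Apoa4* (1.83) and *Alpi* (0.74) lay higher and *Vil1* (−0.22), *Cdh17* (−0.23), *Fabp2* (−0.27), *Sis* (−0.23) and *Lct* (−0.04) did not. The 2 distal markers summed to 1.72 to 2.43 FPKM in controls and 0.547 and 1.79 with IMQ. Goblet cell markers summed to 1395 to 1757 FPKM in controls and 1178 and 1130 with IMQ, and Paneth cell markers to 4575 to 5311 in controls and 3645 and 3282 with IMQ. EdgeR called none of the markers in these 5 lists, while at an unadjusted p under 0.05, 3 epithelial markers and 1 proximal marker were higher and 2 goblet and 2 Paneth cell markers lower, and DESeq2 called 1 marker in each of these 4 lists in the same directions. That proximal marker was *Fabp1*, which is also 1 of the 3 epithelial markers. Of all 19965 genes tested, 2452 had an unadjusted p under 0.05 by edgeR, and DESeq2 called 1206. By *Fabp1*, though not by *Gata4*, the 5 libraries stood in the reverse of their order by *Duox2* FPKM. The orders by *Duoxa2* and *Nos2* were not the reverse of that by *Fabp1*. *Duoxa2* was higher in control 9 (5.71 FPKM) than in control 8 (5.01), and *Nos2* was higher in IMQ library 10 (2.44) than in control 7 (2.31). The part of these markers in the lower levels of *Nos2*, *Duox2* and *Duoxa2* was not tested.

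**Figure D4:**
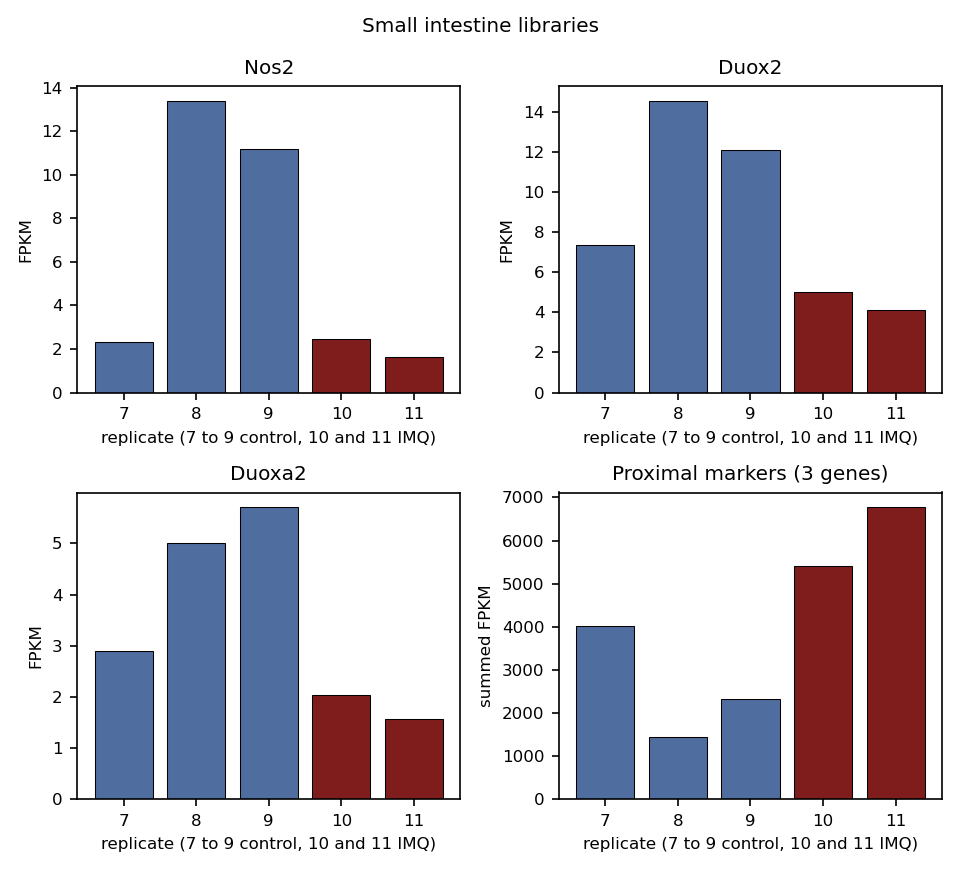
FPKM of *Nos2*, *Duox2* and *Duoxa2* and summed FPKM of 3 proximal markers on the y axes for the 5 small intestine libraries on the x axis. Each bar is 1 library, blue for control and dark red for IMQ. Control 7 has 2.31 FPKM of *Nos2*, near the IMQ libraries (2.44 and 1.62), and the highest proximal sum of the 3 controls, nearly all of it *Fabp1*.

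*Nox1*, the homolog of *Cybb* known from the colon epithelium, was low in both tissues. In the small intestine its normalized counts were 104, 115 and 189 in controls and 79.9 and 116 with IMQ, so that the groups overlapped (log2 fold change −0.48, 95% interval −1.33 to 0.37, edgeR adjusted p = 0.706). In skin it had 12, 17 and 16 counts in controls and 4, 6 and 7 with IMQ. The skin groups did not overlap, and the log2 fold change was −1.24 (95% interval −2.02 to −0.46, edgeR adjusted p = 0.0749). The share of all genes without overlap in skin was not counted. With so few counts the comparison is limited by depth, and it was not called without control 2 either (log2 fold change −1.03, adjusted p = 0.0919).

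In skin, *Duox2* was low and *Duoxa2* was near the detection limit. *Duox2* had 142, 202 and 75 counts in controls and 114, 98 and 94 with IMQ, and the groups overlapped (log2 fold change −0.35, 95% interval −1.36 to 0.67, edgeR adjusted p = 0.687). Its sign turned without control 2, to 0.16. *Duoxa2* had 7, 16 and 0 counts in controls and 7, 15 and 10 with IMQ, and it was not tested because of the count of 0 in control 3. With the filterByExpr filter its log2 fold change was 0.56 (adjusted p = 0.764), and with no filter 0.53 (adjusted p = 0.823). The level of intestinal markers in control 2 would correspond to 0.105 FPKM of *Duox2*, 0.0420 of *Duoxa2*, 0.0829 of *Nos2* and 0.00841 of *Nox1*, against measured levels of 0.643, 0.195, 0.510 and 0.114 FPKM.

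The dual oxidase pair of skin was *Duox1* and *Duoxa1*, the paralogs of *Duox2* and *Duoxa2*. *Duox1* had 2.63, 3.24 and 2.05 FPKM in control skin and 7.15, 7.73 and 6.15 with IMQ, and *Duoxa1* had 5.77, 7.19 and 4.73 FPKM in controls and 20.0, 17.6 and 14.9 with IMQ. Both rose in skin, *Duox1* with a log2 fold change of 1.48 ± 0.23 (SE, edgeR adjusted p = 0.0160) and *Duoxa1* with 1.66 ± 0.23 (SE, edgeR adjusted p = 0.0114). Without control 1 or IMQ library 5 neither was called, and without IMQ library 4 *Duox1* was not called (adjusted p = 0.0565 to 0.0764). Intestinal *Duox1* was at 0.104 to 0.426 FPKM, and *Duoxa1* was at 0 in 4 of 5 libraries. The response of *Duox1* differed between the tissues by −2.55 ± 0.49 on the log2 scale (SE, edgeR interaction, adjusted p = 0.0226), and that call was lost without skin control 1, skin IMQ libraries 4 or 5 or either intestinal IMQ library (adjusted p = 0.0516 to 0.119).

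**Figure D5:**
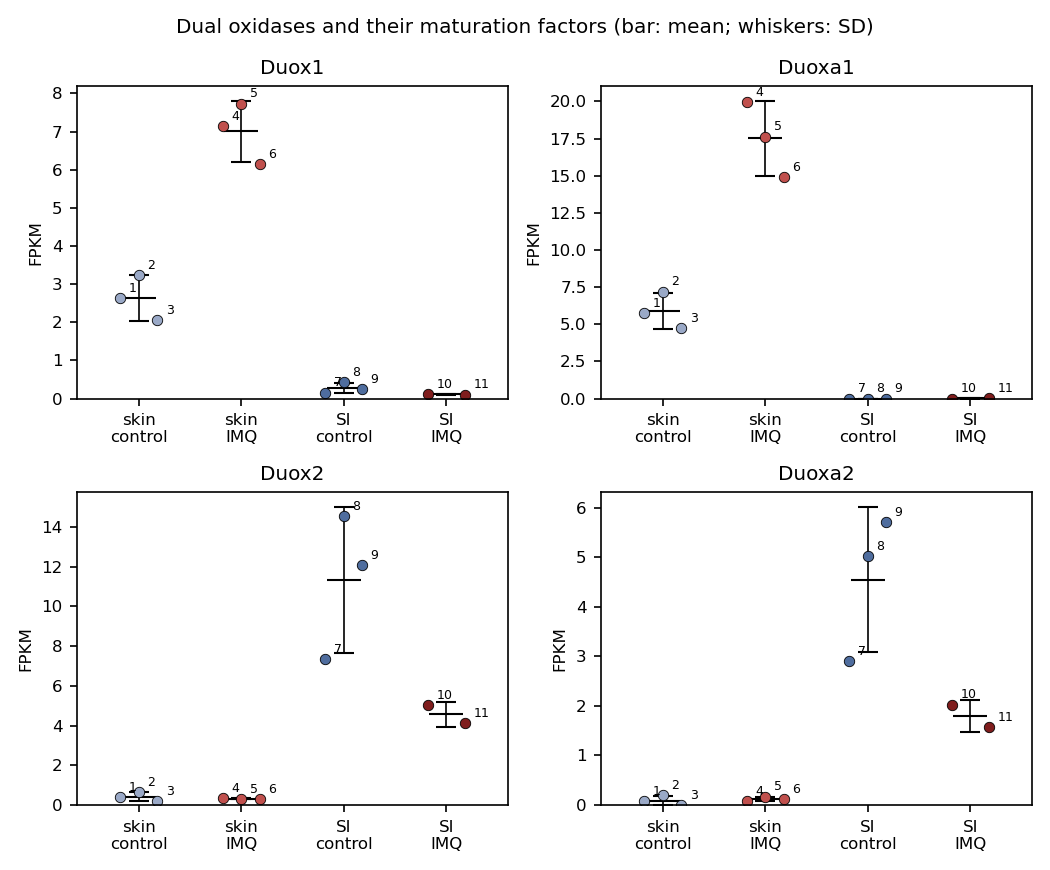
FPKM of *Duox1*, *Duoxa1*, *Duox2* and *Duoxa2* on the y axes by tissue and treatment on the x axis (SI, small intestine). Points are libraries labelled with their replicate numbers, bars are means and whiskers SDs. *Duox1* and *Duoxa1* are seen in skin and are higher with IMQ, while *Duox2* and *Duoxa2* are seen in the small intestine and lie lower with IMQ.

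*Nos2* did not differ detectably in skin. It had normalized counts of 67.9, 110 and 121 in controls and of 79.8, 98.7 and 136 with IMQ, and the groups overlapped throughout. The log2 fold change was 0.07 (95% interval −0.69 to 0.83, edgeR adjusted p = 0.926), and its sign turned without control 1 or IMQ library 6 (−0.15 and −0.16).

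*Arg1* had the largest standard error of the 8 members tested in skin (0.80 on the log2 scale). Its normalized counts were 413, 909 and 196 in controls and 1370, 587 and 159 with IMQ, so that both the highest and the lowest library belonged to IMQ skin. The log2 fold change was 0.48 with a 95% interval of −1.42 to 2.38 (edgeR adjusted p = 0.774), and it turned to −0.43 without IMQ library 4. Intestinal *Arg1* had 57, 54 and 20 counts in controls and 45 and 16 with IMQ, and the groups overlapped (log2 fold change −0.59, 95% interval −1.98 to 0.80, edgeR adjusted p = 0.792). The mitochondrial arginase *Arg2* had the opposite tissue distribution, with 290 to 362 FPKM in the intestinal libraries and 2.61 to 13.2 in skin. *Arg2* fell in IMQ skin, with FPKM of 13.2, 6.71 and 10.7 in controls and 4.10, 4.05 and 2.61 with IMQ (log2 fold change −1.44 ± 0.29, SE, edgeR adjusted p = 0.0364). Leaving out any skin library but control 2 ended that call (adjusted p = 0.0765 to 0.125, against 0.0157 without control 2).

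Between the tissues of control mice, 6 of the 8 genes tested were higher in the small intestine and 1 was lower, where 57.0% of the 18108 genes tested were called. *Duox2* (log2 difference 5.17 ± 0.41, SE), *Nos2* (4.75 ± 0.57) and *Nox1* (3.57 ± 0.34) were far higher in the small intestine, with edgeR adjusted p of 1.48e-06, 3.27e-05 and 5.79e-06. *Duoxa2*, which was left out for its count of 0, had a log2 difference of 6.11 with filterByExpr. *Arg1* was lower in the small intestine (−3.18 ± 0.83, SE, edgeR adjusted p = 0.00664). *Cybb* (0.85), *Cyba* (0.79) and *Ncf1* (0.65) were called higher in the small intestine (edgeR adjusted p = 0.00669, 0.00117 and 0.0148), and *Ncf4* was not called (−0.01, adjusted p = 0.980, and 0.12 without skin control 2). *Ncf1* missed the threshold without skin control 3 (adjusted p = 0.0579) or intestinal control 7 (adjusted p = 0.0649). These calls depended on the scaling: on log2(FPKM + 0.01) the median of all genes lay at −0.45 instead of −0.01, the differences of *Cybb*, *Cyba* and *Ncf1* were 0.44, 0.34 and 0.20, and limma called none of these 3. The share of higher genes among all calls was 27.7% on that scale and 49.5% in the test on counts.

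A single fit of all 11 libraries asked, through an interaction term, whether skin and small intestine responded differently to IMQ. None of the 8 genes tested was called (edgeR), where 2.55% of 18108 genes were called, and 1 had an unadjusted p under 0.05. That gene was *Nos2*, with a difference of −2.18 in the log2 fold change (95% interval −3.90 to −0.46, adjusted p = 0.182). DESeq2 called *Nos2* (adjusted p = 0.0407), limma on FPKM did not, and without intestinal control 7 edgeR called it (−2.63, adjusted p = 0.0113). For *Nos2* control 7 lay at the level of the IMQ libraries, so the call without it is not independent evidence. *Cybb* had a difference of 0.61 (95% interval −0.11 to 1.33, adjusted p = 0.382), so that its larger fold change in the intestine was not shown to differ from that in skin. The intervals for *Cyba* (−0.75 to 0.27), *Ncf1* (−0.93 to 0.36) and *Ncf4* (−1.20 to 0.46) held 0 as well. *Duoxa2* was not tested here for its count of 0 in skin.

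*Rac2*, the GTPase of the phagocyte complex, rose in both tissues. Among 10 partners and paralogs of the oxidases, 3 of 8 tested were higher in skin (*Rac2*, *Duox1* and *Duoxa1*) and 1 of 8 in the small intestine (*Rac2*), with none lower (edgeR, 0 and 3 lower at an unadjusted p under 0.05). DESeq2 called 3 and 2 higher and 0 and 1 lower. Among all genes tested, it called 3030 of 20512 in skin and 1206 of 19965 in the small intestine. Over all genes, edgeR called 6.74% in skin and 2.95% in the small intestine. The log2 fold change of *Rac2* was 2.37 ± 0.21 in skin (SE, edgeR adjusted p = 0.00321) and 2.22 ± 0.21 in the small intestine (adjusted p = 0.00159). *Rac2*, *Il1b*, *Hmox1*, *C1qb* and *C1qc* are among the genes that the study chose to show on these samples, and their counts are not independent evidence. The same holds for the macrophage marker sums and counts, which include *C1qb* and *C1qc*.

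*Noxo1* and *Noxa1*, the organizer and activator that serve NOX1, were higher in the small intestine than in skin. *Noxo1* had 14.4, 19.3 and 14.4 FPKM in control intestine and 10.8 and 11.9 with IMQ, and *Noxa1* had 6.25, 7.43 and 6.91 and then 4.41 and 4.52. The IMQ libraries lay below the controls for both genes, but neither passed the threshold (log2 fold changes −0.39 and −0.57, edgeR adjusted p = 0.271 and 0.174). The share of all genes with such a separation was not counted. In skin *Noxa1* was at 0 in the 3 controls, while *Noxo1* was at 1.10 to 1.78 FPKM in controls and 1.72 to 2.36 with IMQ. Its log2 fold change in skin was 0.60 (edgeR adjusted p = 0.195). The response of *Noxo1* differed between the tissues by −0.99 on the log2 scale without a call (edgeR interaction, adjusted p = 0.0732), and 1 of 6 other settings called it.

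Of 18 other genes of arginine and nitric oxide metabolism, 1 of 16 tested was higher and 1 lower in skin, where 6.74% of all genes were called (5 higher and 2 lower by DESeq2, and as many at an unadjusted p under 0.05). None of 18 was called in the small intestine, where 2.95% of all genes were (edgeR, 3 lower at an unadjusted p under 0.05, 2 lower by DESeq2, 0 by limma). Among all genes tested, DESeq2 called 3030 of 20512 in skin and 1206 of 19965 in the small intestine. By edgeR, 4753 and 2452 of them had an unadjusted p under 0.05. The gene that rose in skin was *Gch1*, which catalyzes the first step in the synthesis of tetrahydrobiopterin, the cofactor of nitric oxide synthases (log2 fold change 1.37 ± 0.17, SE, edgeR adjusted p = 0.00920), and *Arg2* was the one that fell. The endothelial synthase *Nos3* (0.79, adjusted p = 0.0530) and *Ass1*, which takes part in the renewal of arginine from citrulline (1.20, adjusted p = 0.0543), lay just outside the threshold in skin. Without skin control 2 *Ass1* was called (adjusted p = 0.0167), and without skin control 1 *Gch1* was not (adjusted p = 0.0518).

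Of 26 peroxidases and antioxidant enzymes, 5 of 25 tested were higher in skin and 1 of 23 in the small intestine, and none was lower (edgeR, 3 lower in each tissue at an unadjusted p under 0.05). DESeq2 called 8 higher and 2 lower in skin and 1 higher and 2 lower in the small intestine. Among all genes tested, it called 3030 of 20512 in skin and 1206 of 19965 in the small intestine. Over all genes, edgeR called 6.74% in skin and 2.95% in the small intestine, so that the intestinal count was near the background. The genes that rose in skin were the cystine transporter *Slc7a11* (log2 fold change 4.66 ± 0.62, SE), the glutathione peroxidase *Gpx1* (1.18 ± 0.13), *Nqo1* (0.73 ± 0.14) and, named after their values were seen, lactoperoxidase *Lpo* (4.86 ± 1.03) and thioredoxin *Txn1* (0.49 ± 0.11), with edgeR adjusted p of 0.00579 to 0.0479. *Lpo* and *Txn1* were called in none of the 6 fits that left out a skin library (adjusted p = 0.0573 to 0.200), and *Nqo1* was called only without control 2 or IMQ library 6. *Hmox1*, which degrades heme, was the gene that rose in the small intestine, from 1.40, 1.06 and 1.64 FPKM in controls to 10.3 and 5.66 with IMQ (2.55 ± 0.31, SE, edgeR adjusted p = 0.00519).

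Of 17 regulators known to act on these genes, 5 of 13 tested were higher in skin and 2 of 10 in the small intestine, with none lower (edgeR, none lower at an unadjusted p under 0.05). Over all genes, edgeR called 6.74% in skin and 2.95% in the small intestine. DESeq2 called 6 regulators higher in skin and 4 in the small intestine, with none lower. Among all genes tested, it called 3030 of 20512 in skin and 1206 of 19965 in the small intestine. *Spi1*, which encodes PU.1, the factor of myeloid cells, rose in skin (log2 fold change 1.25 ± 0.16, SE, edgeR adjusted p = 0.00961) and in the small intestine (2.43 ± 0.23, adjusted p = 0.00176). *Il1b* rose in both as well (2.84 ± 0.28 and 3.16 ± 0.38, edgeR adjusted p = 0.00432 and 0.00519). *Hif1a* (1.78 ± 0.14), *Il6* (2.41 ± 0.40) and, named after its values were seen, *Stat3* (0.74 ± 0.15) rose in skin, with edgeR adjusted p of 0.00238, 0.0200 and 0.0342. Without control 1, *Spi1*, *Il6* and *Stat3* were not called (adjusted p = 0.0533, 0.0810 and 0.143), and *Il6* (0.0732) and *Stat3* (0.147) were also not called without IMQ library 5. *Stat3* was called only without control 2 among these 6 fits (0.0155).

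For each member, the 3 genes nearest in pattern were sought among 14906 genes by the root-mean-square difference of centered log2(FPKM + 0.1) over the 11 libraries, which share their depth and tissue makeup. *Duox2* and *Duoxa2* were nearest to each other (0.30 on the log2 scale). The nearest genes to *Cybb* were *Sla* (0.22), *Cd180* and *Lpxn*, to *Ncf1* they were *Ctss* (0.21), *Gmfg* and *Pram1*, and to *Ncf4* they were *Fcgr1* (0.23), *Ms4a7* and *Tyrobp*. *Cyba* lay nearest to Gm15590 (0.16), Ftl2-ps and *Rhog*, and *Nox1* to *Rragd* (0.21), *Xpnpep1* and *Cx3cl1*. *Nos2* lay nearest to *Tmem117* (0.50) and *Arg1* to *Itgb8* (0.58). These differences grow with a gene's own spread over the libraries, which was 1.70 for *Nos2* and 1.99 for *Arg1* against 0.43 for *Cyba* and 0.58 for *Ncf1* on the same scale.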

How the data were processed

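RNA was sequenced from 11 libraries of skin and small intestine. Per the labels and the submitters' processing notes, reads were demultiplexed with bcl2fastq 2.20.0, trimmed with Trimmomatic, aligned to mm10 with HISAT2 2.1.0 and quantified with StringTie 2.1.3b. The deposited table holds whole-number counts, FPKM and TPM per gene and library. The authors normalized FPKM for gene length and library size, and the deposited TPM were not used here. How strand and reads with several matches were handled is not given in the sources used here. Of 45777 genes, 14694 had no count in any library. Total counts were 44995414 to 58526384 per library, and replicates of a group differed by more than sampling noise (chi-square per degree of freedom 37.7 to 260 over 10 pairs).

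Counts were tested per tissue with edgeR 4.0.16 in R 4.3.3 (quasi-likelihood test, relative log expression factors, genes counted at least once in each library compared), and p-values were adjusted over all genes tested by Benjamini-Hochberg, with a threshold of 0.05. The common coefficient of biological variation from edgeR was 0.245 for skin and 0.215 for small intestine. The tissue difference and the interaction came from 1 fit of all 11 libraries. To normalize, each count was divided by its library's effective size, taken relative to the tissue mean. Alternatives were TMM factors, DESeq2 1.42.0, filterByExpr, no filter, limma 3.58.1 on log2(FPKM + 0.01) and log2(FPKM + 1), 1 fit of all libraries, for the tissue difference the control libraries alone, and leaving out each library. The fits were tested on simulated data. Tables and motifs were handled in Python 3.11.15. Positions of the 9 genes and promoter windows of 6 came from RefSeq (GRCm38.p6). The members, gene lists and marker lists were chosen with earlier results of these data known. All 9 members are named, with up to 4 genes of each list by smallest adjusted p in either tissue and direct partners of members. A gene of these lists is not reported here. Human samples, flow cytometry and microbiota are not analysed here.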

Additional observations from a re-analysis of the deposited data

Results flagged for a closer look

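Among the pathway genes named above, 5 had a response to IMQ that differed between the tissues by the edgeR interaction test, given as the log2 fold change in the small intestine minus that in skin. *Duox1* had a difference of −2.55 (adjusted p = 0.0226), with a rise in skin and 0.104 to 0.426 FPKM in the small intestine. *Slc7a11* had −5.74 (adjusted p = 0.0104), with log2 fold changes of 4.66 in skin and −1.08 in the small intestine, the second without a call. *Hif1a* had −1.58 (adjusted p = 0.0114) and *Nqo1* had −0.95 (adjusted p = 0.0234), and both rose in skin only by the test within each tissue. *Hmox1* had 2.03 (adjusted p = 0.0127), with a rise in the small intestine and 0.53 in skin (adjusted p = 0.0975). Over the 11 fits that left out 1 library, *Hmox1* and *Hif1a* were called in 10, *Slc7a11* in 9, *Duox1* in 6 and *Nqo1* in 5. The calls of *Duox1*, *Nqo1*, *Slc7a11* and *Hmox1* were lost without intestinal IMQ library 10 (adjusted p = 0.0541 to 0.119), and those of *Duox1*, *Nqo1*, *Slc7a11* and *Hif1a* without library 11 (adjusted p = 0.0644 to 0.107). Those of *Duox1* and *Nqo1* were also lost without skin control 1 or skin IMQ libraries 4 or 5 (adjusted p = 0.0504 to 0.0707), and that of *Nqo1* without intestinal control 9 (adjusted p = 0.0600).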

How the results depend on the processing

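The count of genes called moved most. In skin it was 1382, against 3030 with DESeq2, 894 on log2(FPKM + 1) and 258 (without IMQ library 5) to 2521 (without control 2) when 1 library was left out. In the small intestine it was 588, against 1206 with DESeq2 and 294 to 801 with 1 library left out, the highest without control 7. For the interaction it was 462, against 1281 with DESeq2, 301 with no filter and 144 to 1072 with 1 library left out. The share of higher calls was 60.1% in skin and 50% with DESeq2, and 94.2% in the small intestine and 83.4% with DESeq2. Of the 9 genes, 1 to 3 were called in skin with 1 library left out. In the small intestine 6 were called with DESeq2, 1 with no filter or either fit on FPKM, and 1 to 6 with 1 library left out. For the interaction 1 was called with DESeq2 and 0 to 1 with 1 library left out, and for the tissue difference 4 on either FPKM scale.

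In the fits run, log2 differences of named genes turned sign only where they were not called. With 1 library left out they spanned −0.69 to 0.16 for *Duox2*, −0.16 to 0.24 for *Nos2* (−0.15 without control 1) and −0.43 to 1.21 for *Arg1* in skin. In the small intestine they spanned −0.026 to 0.19 for *Arg2* (−0.012 without control 8), −0.62 to 0.011 for *Ass1*, −0.016 to 0.52 for *Gpx1*, −0.33 to 0.040 for *Txn1* and −0.028 to 0.19 for *Stat3*. For the interaction, the spans were −0.58 to 0.0035 for *Ncf4*, −0.33 to 0.048 for *Rac2* (0.0042 without intestinal control 7) and −0.47 to 0.85 for *Il1b*, and *Nox1* was −0.14 on log2(FPKM + 1). The tissue difference of *Ncf4* was 6.0e-04 with filterByExpr and −0.37 to 0.21 with 1 library left out (0.12, 0.083 and 0.0011 among them). The cause was not tested.

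With 1 intestinal IMQ library left, the spread comes from the controls, and the lone library is assumed to vary like them. No paired analysis was possible because the groups share no replicate numbers in the labels. Small counts limit *Nox1* and *Duoxa2* in skin and *Arg1* in the small intestine.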
